A study of Homo sapiens with 6 samples.

Results

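The genes examined here encode the Wnt ligands, the proteins that release them, their receptors and co-receptors, the secreted inhibitors, the cytoplasmic scaffolds and destruction complex, and the TCF/LEF transcription factors. They were selected by gene symbol, and 58 of the 74852 loci in the gene expression table had such a symbol. The table comes from MDA-MB-231 cells, a human mesenchymal-like breast cancer cell line of the triple-negative subtype. For the si-CTRL group (3 libraries) the cells received non-targeting siRNAs, and for the si-SAM68 group (3 libraries) 4 pooled siRNAs directed at SAM68. Per the labels there were 2 rounds of transfection, with harvest 24 h after the second; the methods of the study give another harvest time. No other agent or genotype distinguished the groups, and all libraries came from this 1 line. The labels do not say whether the 3 libraries of a group came from separate cultures. The methods of the study state a harvest in triplicate, without naming separate cultures. P-values therefore measure the spread between these libraries, which may be technical. The comparison asks which transcripts differ in abundance once Sam68, an RNA-binding protein and splicing regulator encoded by KHDRBS1, has been depleted.

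Wnt ligands are secreted glycoproteins. PORCN attaches the lipid that they need for activity, and WLS carries them to the cell surface. There they bind Frizzled (FZD) receptors together with LRP5 or LRP6, which recruits Dishevelled (DVL) and stops the AXIN, APC and GSK3B complex from marking β-catenin for destruction, so that β-catenin accumulates and acts with TCF/LEF factors on target genes. A separate branch signals through ROR or RYK co-receptors and the cytoskeleton without β-catenin. RNF43 and ZNRF3 are membrane ubiquitin ligases that remove Frizzled receptors from the cell surface, while DKK, SFRP and WIF proteins antagonize the ligands or co-receptors outside the cell.

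The SAM68 siRNAs are shown because they define the si-SAM68 group and because their seeds were searched in the Wnt genes. Sense strands are written 5′ to 3′, and capitals mark the bases that pair with positions 2 to 8 of the guide strand.
siRNA 1: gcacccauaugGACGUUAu
siRNA 2: gaaagagcgagUGCUGAUa
siRNA 3: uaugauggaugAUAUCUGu
siRNA 4: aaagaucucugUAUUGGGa
Of the 2 coding transcripts of KHDRBS1 in GENCODE v29, siRNAs 1 to 3 matched the coding sequence of both and siRNA 4 that of 1. A 7-base match to at least 1 of the 4 seeds lay in the longest 3′UTR of 14 of the 41 Wnt genes tested (34.1%), against 28.8% of all 13254 tested genes with an annotated 3′UTR.

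KHDRBS1 itself (GSHG0000334, hg19 chr1:32479295-32526460) had normalized read counts of 15660, 14483 and 14737 in the si-CTRL libraries and of 583, 602 and 670 in the si-SAM68 libraries. It fell by 4.60 on the log2 scale, or 24.2-fold (adjusted p = 2.13e-09, limma), and so matched the labels of all 6 libraries. A normalized read count is the number of reads on a locus divided by the size factor of its library, and libraries held between 52625492 and 82568487 reads. The rRNA locus took 15.1% of the reads of si-SAM68 replicate 2 and 1.83% to 3.17% of the other libraries, and 58 histone loci deviated there by a median of 1.72 on the log2 scale. The limma calls and fold changes below were also computed without this library. Levels, shares, their permutations and the overlap of groups were computed with all libraries only. The line's markers VIM, CD44, AXL and MSN were all present. Of the genes that should be low in it, PGR was at 0, and CDH1, EPCAM and ESR1 did not exceed 15.2, whereas ERBB2 was at 2413 to 3447. Of other cell types, the leucocyte markers PTPRC, CD3E and CD14 did not exceed 13.6, and ITGAM was at 56.2 to 116. CD68 was at 112867 to 117455 in si-CTRL and at 107000 to 108533 in si-SAM68 libraries, on a locus that joins it with EIF4A1 and SENP3, so that its own level is not known. The endothelial markers KDR and TEK were at 0, while PECAM1, VWF and CDH5 were low but present. CDH5 was at 42.5, 28.1 and 20.9 in si-CTRL and at 16.1, 12.9 and 11.2 in si-SAM68 libraries (log2 fold change -1.09, adjusted p = 0.0756, limma), and the summed level of the 5 endothelial genes was 49.4 to 76.2 and 31.3 to 35.7. The fibroblast markers DCN and LUM did not exceed 4.47. The fibroblast list also held PDGFRB, PDGFRA on a locus joined with FIP1L1, COL1A1 at 138281 to 181387 and THY1, which fell (adjusted p = 0.00288, limma); the summed level of its 6 genes was 155199 to 190676 in si-CTRL and 145855 to 183807 in si-SAM68 libraries, and the part of these 3 lists in the values below was not tested.

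Of the 58 Wnt genes, 41 reached a mean of 10 normalized reads over the 6 libraries and were tested, while 17 lay under it, of which 9 were at 0 in every library. By limma, with Benjamini-Hochberg adjustment over all 18849 loci tested, 6 of the 41 (14.6%) had an adjusted p-value under 0.05, beside 10.7% of all loci. RNF43, FZD7, FZD6 and FZD2 rose and FZD8 and LEF1 fell. These 4 higher and 2 lower genes compare with 4.47% of all loci higher and 6.23% lower. The calls lay among the receptors (4 of 9 tested), the ubiquitin ligases (1 of 2) and the transcription factors (1 of 4). None of the 9 ligands, 2 secretion factors, 5 co-receptors, 3 secreted inhibitors or 7 scaffold and destruction complex genes tested passed this threshold by limma. At an unadjusted p-value under 0.05, which 27% of all loci had, there were 4 ligands, 1 secreted inhibitor and 3 of the scaffold and destruction complex genes, and none of the secretion factors or co-receptors. edgeR called 1 ligand (WNT5B) and DESeq2 1 ligand (WNT5B) and 1 Dishevelled gene (DVL3), and neither called a gene of the other 3 groups. RNA came from whole cultures, in which fewer cells expressing a gene and less of its RNA per cell cannot be told apart. The study's thresholds (p-value not above 0.05 before adjustment, and fold change of 1.5 or more), applied to the limma values here, also took 6 Wnt genes (14.6%, beside 7.67% of all loci). They were RNF43 and FZD7, higher in si-SAM68 cells (2.83% of all loci), and FZD8, LEF1, TCF7 and WNT4, lower in them (4.83%). The study's own p-values came from another analysis, and whether these genes are in its list of regulated genes is not given here. The libraries of the groups did not overlap for 22 of the 41 genes (53.7%), 9 higher and 13 lower, beside 33.9% of all loci (16.6% higher and 17.3% lower). The median log2 fold change of the 41 was -0.08, beside 0.00503 over all loci, with 15 estimates above 0 and 26 below.

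**Figure D1:**
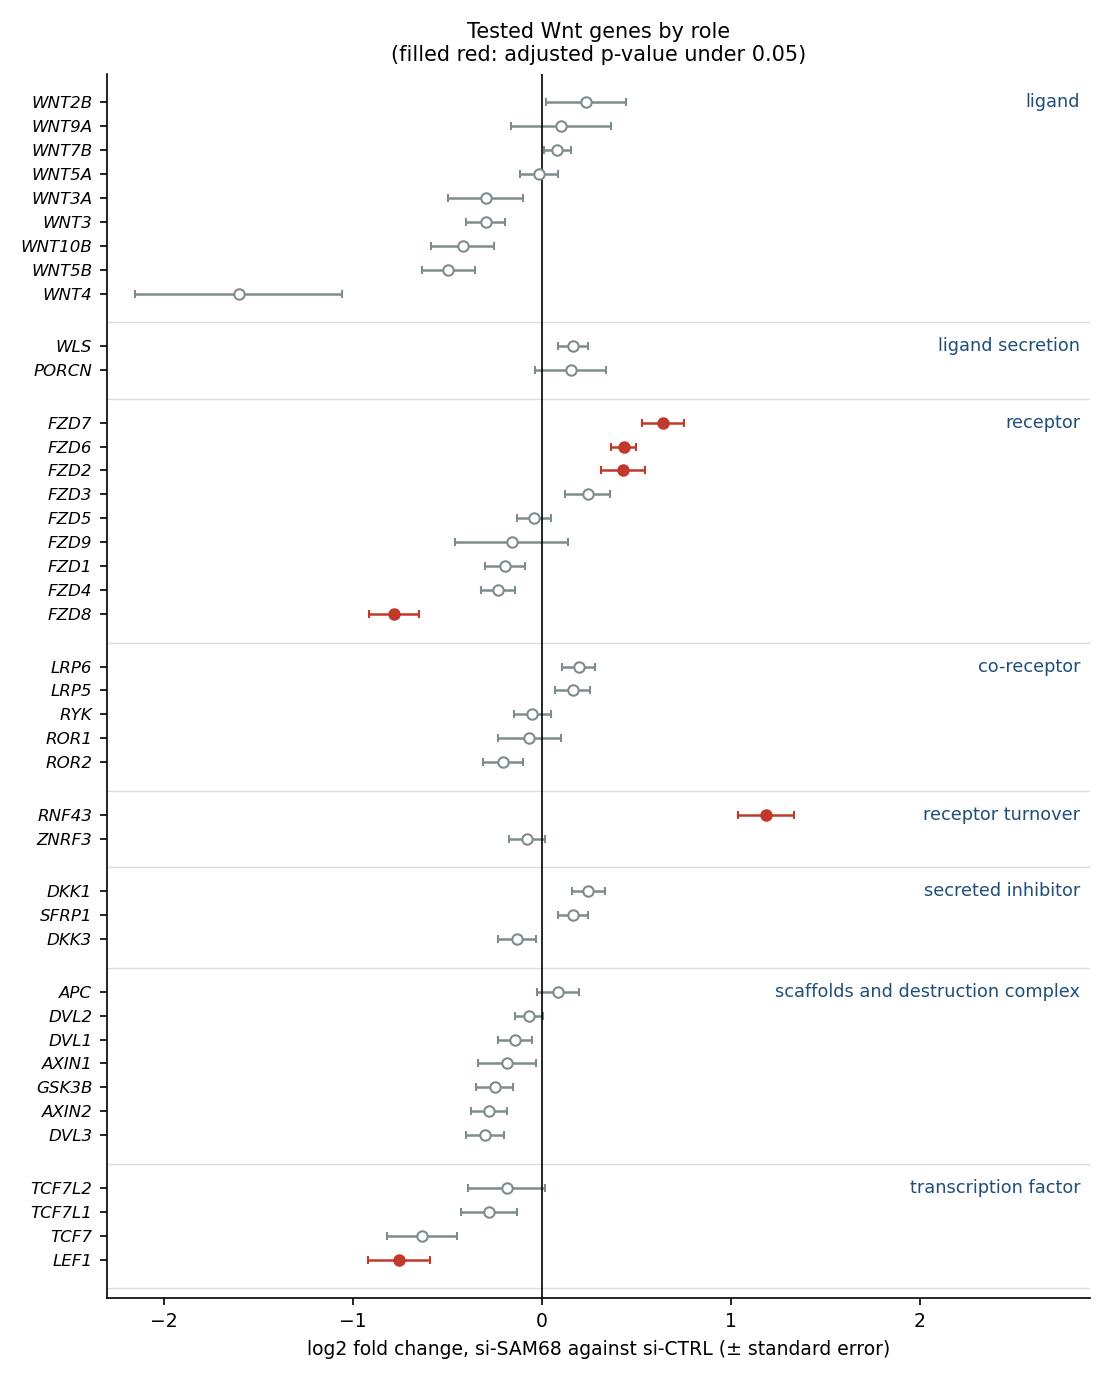
Log2 fold change of the 41 tested Wnt genes, si-SAM68 against si-CTRL, on the horizontal axis, with the genes grouped by role on the vertical axis; points are limma estimates with their standard errors (3 libraries per group), and filled red points mark an adjusted p-value under 0.05. RNF43 stands farthest to the right at 1.19, the receptors spread to both sides of 0, and all 4 transcription factors lie below 0.

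The receptors held the largest number of calls. They differed in direction, since FZD2, FZD6 and FZD7 rose and FZD8 fell. FZD7 (GSHG0017111, hg19 chr2:202899310-202903160), a receptor that acts in β-catenin signalling, was at 2666, 3582 and 3421 normalized reads in si-CTRL and at 5237, 4815 and 4936 in si-SAM68 libraries. Every si-SAM68 library was above every si-CTRL library, and the gene rose 1.56-fold (log2 fold change 0.64 ± 0.11 SE, adjusted p = 0.00739, limma). FZD6 (GSHG0029187, hg19 chr8:104310661-104345092), a receptor known from planar cell polarity, was at 8388, 8208 and 8269 in si-CTRL and at 11102, 11150 and 11334 in si-SAM68 libraries. The groups were narrow and far apart, and it rose 1.35-fold (log2 fold change 0.43 ± 0.07 SE, adjusted p = 0.00416, limma).

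FZD2 (GSHG0012550, hg19 chr17:42634812-42638629), a close relative of FZD7 and FZD1, was at 4673, 6061 and 5831 in si-CTRL and at 8517, 6852 and 6932 in si-SAM68 libraries. Its log2 fold change was 0.43 ± 0.12 SE with an adjusted p-value of 0.0463 (limma), and the highest value came from si-SAM68 replicate 1. With the replicate number as a block the adjusted p-value was 0.0869, so that this call was lost, and it was also lost on leaving out si-CTRL replicate 3 or any 1 of the si-SAM68 libraries (highest adjusted p = 0.151). By limma it was lost too without a filter (adjusted p = 0.0686), with quantile normalization (0.0622) and with eBayes without a trend (0.142). The call of FZD2 held with TMM scaling, pseudocounts of 0.1 and 5, a minimum mean of 50, edgeR and DESeq2. FZD8 (GSHG0004001, hg19 chr10:35927177-35930366, a locus that also contains MIR4683) was at 6957, 6245 and 8882 in si-CTRL and at 3679, 4549 and 4532 in si-SAM68 libraries. All si-SAM68 values lay under all si-CTRL values, and it fell 1.72-fold (log2 fold change -0.78 ± 0.13 SE, adjusted p = 0.00702, limma). The calls of FZD6, FZD7 and FZD8 held on leaving out each library in turn, with highest adjusted p-values of 0.0307, 0.0469 and 0.0397.

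**Figure D2:**
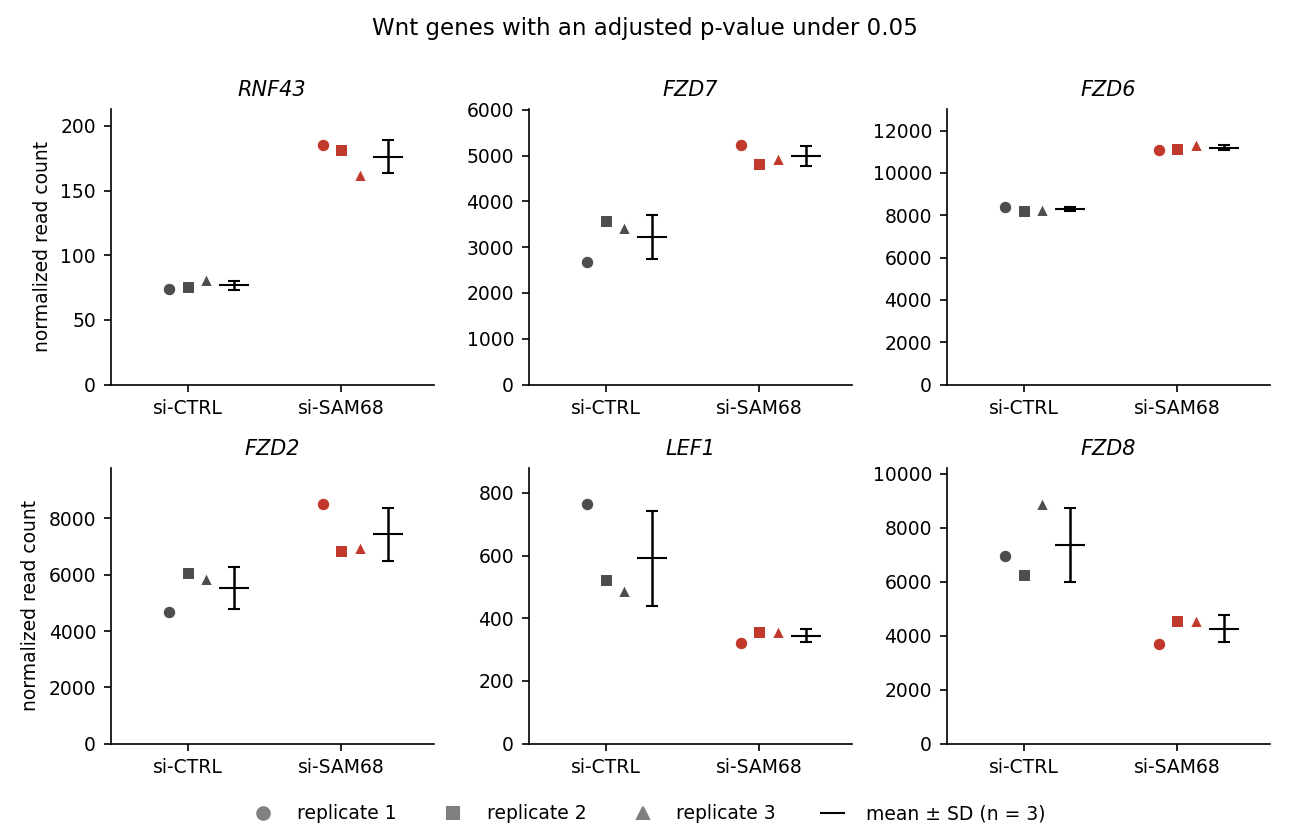
Normalized read count on the vertical axis in each of the 3 si-CTRL (grey) and 3 si-SAM68 (red) libraries for the 6 Wnt genes with an adjusted p-value under 0.05; symbols give the replicate number and black bars the mean ± SD of each group. The groups do not overlap in any of the 6 panels, RNF43 has the lowest counts (73.7 to 185), and LEF1 and FZD8 vary more among si-CTRL than among si-SAM68 libraries.

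The other 5 receptors tested did not pass. FZD4, the receptor for norrin in vessels, had 1161 ± 15.5 normalized reads in si-CTRL (SD, n = 3, as for all means below) and 991 ± 80.1 in si-SAM68 cells (log2 fold change -0.23, adjusted p = 0.139, limma). The FZD4 locus shares 7214 of its 9724 bases with that of PRSS23, a serine protease gene that rose (log2 fold change 0.41, adjusted p = 0.00811, limma), and the assignment of reads between them is uncertain. The log2 fold changes of FZD1, FZD5, FZD9 and FZD3 were -0.20, -0.04, -0.16 and 0.24, with adjusted p-values of 0.224 to 0.809. FZD10 had no read in any library. Taken alone, a library without reads allows an expected count of up to 3 by counting error, and the 6 libraries together allow less per library.

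To compare the receptors with one another, each normalized read count was divided by the length of the gene's merged exons in kilobases. On this scale FZD2 was the highest Frizzled gene in si-CTRL cells (2615 ± 352 per kilobase), followed by FZD6 (2111 ± 23.2) and FZD8 (1827 ± 339); the last 2 differed by less than the SD of FZD8. FZD7 followed at 835 ± 127, and FZD1, FZD5, FZD4, FZD9 and FZD3 lay between 398 and 18.9. In si-SAM68 cells FZD7 (1295 ± 56.3) was above FZD8 (1055 ± 123). FZD8 took 22.8%, 18.9% and 25.1% of the summed Frizzled level in the si-CTRL libraries and 9.31%, 12.3% and 12.1% in the si-SAM68 libraries. FZD2 and FZD7 together took 42.1% ± 4.08 of it in si-CTRL cells and 50.9% ± 3.50 with si-SAM68, and FZD6 took 25.9% ± 2.15 and 30.2% ± 1.22. The summed level itself was 8187 ± 609.6 per kilobase in si-CTRL cells and 9440 ± 322 with si-SAM68. For each of these 4 quantities the groups did not overlap, and the exact two-sided permutation p-value was 0.1, the smallest that 3 libraries against 3 allow. With the libraries paired by replicate number all 3 pairs moved the same way, and the exact permutation p-value was 0.25, again the smallest possible. These quantities share their counts and are not independent of the calls above. FZD2, FZD6 and FZD7 had been called higher and FZD8 lower, so that the permutations of their shares add no support of their own. The share of FZD1, a close relative of FZD2 and FZD7, was 4.89% ± 0.73 in si-CTRL cells and 3.69% ± 0.44 with si-SAM68.

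**Figure D3:**
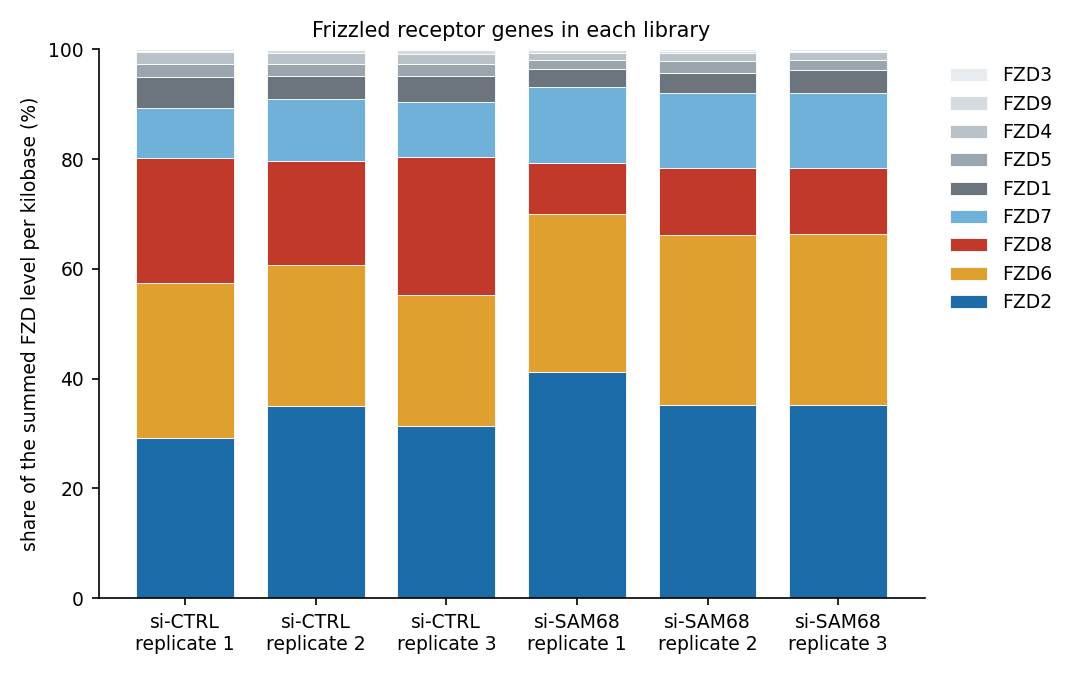
Share of each Frizzled gene in the summed Frizzled level per kilobase (vertical axis, percent) in each of the 6 libraries (horizontal axis); each bar is 1 library and adds up to the 9 receptors tested. The FZD8 segment is 18.9% to 25.1% in si-CTRL and 9.31% to 12.3% in si-SAM68 libraries, while the FZD7 segment is 9.12% to 11.3% and 13.6% to 13.8%.

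RNF43, the ubiquitin ligase that removes Frizzled receptors from the membrane, gave the largest fold change among the 6 called genes. RNF43 (GSHG0118952, hg19 chr17:56429861-56494943) was at 73.7, 75.5 and 80.8 normalized reads in si-CTRL and at 185, 181 and 162 in si-SAM68 libraries. The si-SAM68 libraries lay far above the narrow range of the si-CTRL libraries, and the gene rose 2.28-fold (log2 fold change 1.19 ± 0.15 SE, adjusted p = 0.00152, limma). The call held with each library left out (highest adjusted p = 0.0134). Its locus shares 1227 of 65083 bases with that of the antisense gene TSPOAP1-AS1, at 431 ± 91.9 normalized reads in si-CTRL cells and 348 ± 14.3 with si-SAM68 (log2 fold change -0.29, adjusted p = 0.245, limma). At 10.4 per kilobase in si-CTRL cells and 23.9 with si-SAM68, RNF43 stayed below its homologue ZNRF3 (97.5 and 92.3 per kilobase). ZNRF3 itself had 679 ± 36.3 and 643 ± 16.3 normalized reads (log2 fold change -0.08, 95% interval -0.29 to 0.13, adjusted p = 0.636, limma).

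All 4 TCF/LEF genes had a log2 fold change below 0, and 1 of them passed. LEF1 (GSHG0023463, hg19 chr4:108968701-109090112), which binds DNA with β-catenin and is itself a known target of the pathway, was at 765, 521 and 488 normalized reads in si-CTRL and at 320, 356 and 355 in si-SAM68 libraries. It fell 1.68-fold (log2 fold change -0.75 ± 0.16 SE, adjusted p = 0.0191, limma), and the groups did not overlap. The call was lost on leaving out any 1 of the si-SAM68 libraries (highest adjusted p = 0.081). Without si-CTRL replicate 1, its highest library, LEF1 fell by 0.55 on the log2 scale (adjusted p = 0.00741, limma).

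TCF7 (GSHG0024238, hg19 chr5:133450402-133483927), the relative first known from T cells, was at 562, 354 and 332 in si-CTRL and at 258, 258 and 265 in si-SAM68 libraries. Its groups did not overlap and it was past the study's thresholds at a fold of 1.55, but its adjusted p-value was 0.0558 (log2 fold change -0.63 ± 0.18 SE, limma). By DESeq2 on recovered reads the adjusted p-value was 0.00647, and without si-CTRL replicate 1 the log2 fold change was -0.40 with an adjusted p-value of 0.0425. It also passed without si-CTRL replicate 3 (adjusted p = 0.0432). The TCF7 locus lies inside the span of that of CDKN2AIPNL, for which the log2 fold change was 0.08. TCF7L1, mostly a repressor, was at 522, 448 and 353 in si-CTRL and at 385, 351 and 343 in si-SAM68 libraries. Its log2 fold change was -0.28 (adjusted p = 0.257, limma), and 1 si-CTRL library lay among the si-SAM68 values. TCF7L2, the main factor of the intestine, was at 1017, 590 and 554 in si-CTRL and at 553, 660 and 620 in si-SAM68 libraries. Its log2 fold change of -0.19 (adjusted p = 0.6, limma) became 0.09 without si-CTRL replicate 1. That library gave the highest si-CTRL value of all 4 factors, as it did for 18 of the 41 Wnt genes and for 40.5% of all loci tested.

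**Figure D4:**
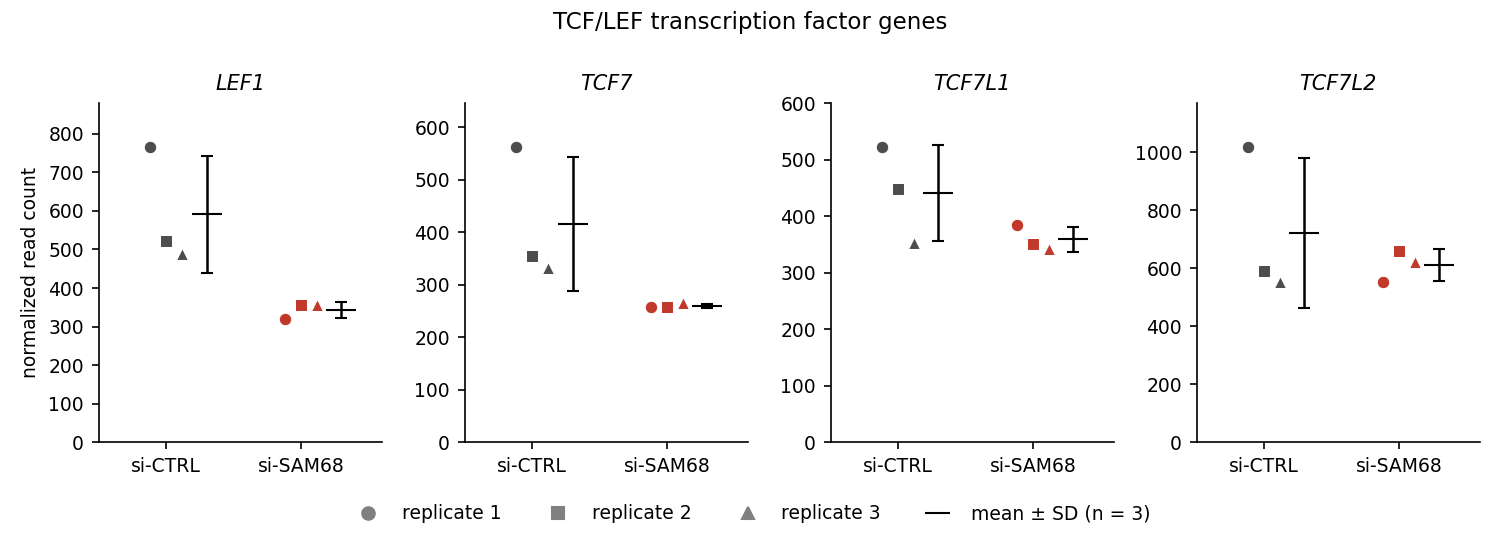
Normalized read count (vertical axis) of LEF1, TCF7, TCF7L1 and TCF7L2 in the 3 si-CTRL (grey) and 3 si-SAM68 (red) libraries; symbols give the replicate number and black bars the mean ± SD of each group. si-CTRL replicate 1 is the highest library in every panel, and the groups are apart for LEF1 and TCF7 and overlap for TCF7L1 and TCF7L2.

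Among the 19 ligands, 9 were tested. WNT7B, which can act through β-catenin, was by far the highest of them per kilobase and took 63.2% ± 2.05 of the summed ligand level in si-CTRL cells and 69.3% ± 0.68 with si-SAM68, with groups that did not overlap (exact permutation p = 0.1, or 0.25 within pairs, each the smallest possible). Its own level was 6439 ± 98.6 normalized reads in si-CTRL cells and 6827 ± 359 with si-SAM68 (log2 fold change 0.08, 95% interval -0.08 to 0.25, adjusted p = 0.499, limma). WNT5B, a ligand of the β-catenin-independent branch, was at 601, 747 and 892 in si-CTRL and at 552, 497 and 522 in si-SAM68 libraries. Its log2 fold change was -0.49 ± 0.14 SE and its adjusted p-value 0.0511 (limma), without overlap of the groups. WNT5B passed by edgeR (adjusted p = 0.0421), by DESeq2 (0.0066) and without si-CTRL replicate 1 (0.00285). Its locus shares 19511 of 72559 bases with that of FBXL14, a ubiquitin ligase subunit that fell (log2 fold change -0.37, adjusted p = 0.0336, limma), and reads of both loci may not be separate.

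WNT4 (GSHG0001837, hg19 chr1:22443798-22470385), a ligand of gonad and mammary gland development, was at 21.2, 16.5 and 18.1 in si-CTRL and at 11.1, 1.84 and 6.70 in si-SAM68 libraries. The values were low and the gene was tested only because of its si-CTRL level, since its si-SAM68 mean of 6.54 lay under the minimum. The log2 fold change was -1.60 ± 0.55 SE (unadjusted p = 0.015, adjusted p = 0.0918, limma), and it was -1.01 without si-SAM68 replicate 2. WNT5A, the paralog of WNT5B, was at 1000.5 ± 108 normalized reads in si-CTRL cells and 989 ± 40.0 with si-SAM68 (log2 fold change -0.01, 95% interval -0.24 to 0.21, adjusted p = 0.956, limma). WNT3, WNT3A and WNT10B, classed as ligands of the β-catenin branch, had log2 fold changes of -0.30, -0.30 and -0.42 with adjusted p-values of 0.0944, 0.374 and 0.143. WNT2B and WNT9A were at 0.23 and 0.10 (adjusted p of 0.511 and 0.845).

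The 10 remaining ligands lay under the minimum. WNT10A had 11.4 ± 3.12 normalized reads in si-CTRL cells and 6.64 ± 2.59 with si-SAM68. WNT6, WNT7A, WNT8A, WNT11 and WNT16 had at most 4 reads in any library, and WNT1, WNT2, WNT8B and WNT9B had none. The secretion factors WLS and PORCN had log2 fold changes of 0.16 (4453 ± 335 and 4982 ± 155 normalized reads, adjusted p = 0.221) and 0.15 (152 ± 31.6 and 169 ± 26.9, adjusted p = 0.639).

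The secreted inhibitors SFRP1, which binds the ligands, and DKK1, which blocks LRP5 and LRP6, were the highest Wnt genes of all per kilobase, at 41032 ± 2372 and 25377 ± 2394 in si-CTRL cells. SFRP1 was at 187205, 190616 and 208243 normalized reads in si-CTRL and at 211265, 223051 and 222810 in si-SAM68 libraries, and DKK1 at 42188, 43799 and 50284 against 51662, 52569 and 57285. Neither gene's groups overlapped, and the log2 fold changes were 0.17 ± 0.08 SE and 0.25 ± 0.09 SE with adjusted p-values of 0.224 and 0.103 (limma). DKK3, a divergent member of the family, had 7775 ± 345 normalized reads in si-CTRL cells and 7138 ± 934 with si-SAM68 (log2 fold change -0.13, adjusted p = 0.432). DKK2 and DKK4 had at most 2 reads in any library, and SFRP2, SFRP4, SFRP5 and WIF1 had none.

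Among the co-receptors, LRP5 and LRP6 had log2 fold changes of 0.16 and 0.20 (adjusted p of 0.294 and 0.191). ROR1, ROR2 and RYK, receptors of the branch without β-catenin, had -0.07, -0.20 and -0.05 (adjusted p of 0.842, 0.24 and 0.792). RYK was the highest of the 5 at 4353 ± 615 per kilobase in si-CTRL cells, and ROR1 the lowest at 35.6 ± 1.05.

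In the cytoplasm, 6 of 7 genes had an estimate below 0 and none passed. DVL3, the most abundant Dishevelled gene per kilobase together with DVL2 (1177 ± 150 and 1068 ± 15.5 in si-CTRL cells), was at 6278 ± 802 normalized reads in si-CTRL cells and 5087 ± 334 with si-SAM68 (log2 fold change -0.30, adjusted p = 0.0891, limma). It passed by DESeq2 (adjusted p = 0.0428), and its locus lies inside that of EIF2B5, for which the log2 fold change was -0.05. DVL1 and DVL2 had -0.14 and -0.07. AXIN2, a scaffold and widely used target gene of β-catenin, was at 1347, 1162 and 1149 in si-CTRL and at 956, 1033 and 1019 in si-SAM68 libraries. Its groups did not overlap, and its log2 fold change was -0.28 (95% interval -0.49 to -0.07, adjusted p = 0.0918, limma). These reads were counted on a locus spanning hg19 chr17:63524685-64188249, and the part of any neighbouring gene in them is not known. GSK3B, AXIN1 and APC had log2 fold changes of -0.25, -0.18 and 0.09 with adjusted p-values of 0.134, 0.482 and 0.652.

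The wider pathway and its targets were taken from 5 lists of 102 further genes, of which 84 were tested and 13 (15.5%, beside 10.7% of all loci) passed, 7 higher and 6 lower in si-SAM68 cells (beside 4.47% and 6.23% of all loci). The count was 21, 10 and 5 without si-CTRL replicates 1, 2 and 3. Without si-SAM68 replicates 1, 2 and 3 it was 6, 5 and 3. Calls over all 18849 loci also changed, being 2839, 1592 and 1103, then 923, 808 and 625 in the same order, against 2017 with all libraries. Of 28 target genes, 3 rose and 4 fell, of 20 in the destruction complex and cytoplasm list 3 rose and 1 fell, of 12 for planar cell polarity 1 rose, and of 13 acting in the nucleus 1 fell. None of the 11 tested cell surface and secreted genes passed by limma, edgeR or DESeq2, and 2 had an unadjusted p-value under 0.05 (27% of all loci). The list medians of log2 fold change were -0.03, 0.07, 0.06, -0.03 and -0.20 in the same order. CTNNB1, which encodes β-catenin, was at 17510, 21046 and 20957 normalized reads in si-CTRL and at 21794, 21420 and 21444 in si-SAM68 libraries (log2 fold change 0.12, 95% interval -0.07 to 0.32, adjusted p = 0.383, limma).

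DAAM1, a formin that acts on the actin cytoskeleton, gave the strongest rise of these genes. It was at 821, 697 and 676 in si-CTRL and at 1607, 1490 and 1585 in si-SAM68 libraries (log2 fold change 1.10 ± 0.10 SE, adjusted p = 0.000333, limma). DACT3, a Dishevelled-binding antagonist, was at 42.5, 44.6 and 36.1 in si-CTRL and at 18.1, 5.52 and 6.70 in si-SAM68 libraries, and fell by 2.09 on the log2 scale (adjusted p = 0.0147, limma). Its si-SAM68 mean of 10.1 lay at the minimum, and the call was lost without si-SAM68 replicate 3 (highest adjusted p = 0.0749). Its relative DACT1 rose by a log2 fold change of 0.44 (512 ± 55.2 and 696 ± 70.7), with an adjusted p-value of 0.0424 that became 0.0619 with the replicate block.

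Among the target genes, MET, the hepatocyte growth factor receptor, and L1CAM, an adhesion molecule, rose by 0.44 and 0.39 on the log2 scale (adjusted p of 0.0178 and 0.0397, limma). EDN1, the precursor of endothelin, rose by 0.49 (adjusted p = 0.046, limma), and with the replicate block the value was 0.0682. ENC1, an actin-binding protein, was at 2045, 2148 and 2225 in si-CTRL and at 1310, 1427 and 1362 in si-SAM68 libraries and fell by 0.65 on the log2 scale (adjusted p = 0.00161, limma). VEGFA, the angiogenic growth factor, PPARD, a nuclear receptor, and PLAUR, the urokinase receptor, fell by 0.57, 0.50 and 0.44 (adjusted p of 0.0148, 0.00832 and 0.0211, limma). Of the 13 genes, DAAM1 and ENC1 kept an adjusted p-value under 0.05 with each library left out (highest 0.0075 and 0.0162). The remaining 3 called genes are named after their values were seen, namely BTRC (0.33), which marks β-catenin for degradation, TNKS2 (0.31), a tankyrase that destabilizes AXIN, and CTBP1 (-0.35), a co-repressor.

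**Figure D5:**
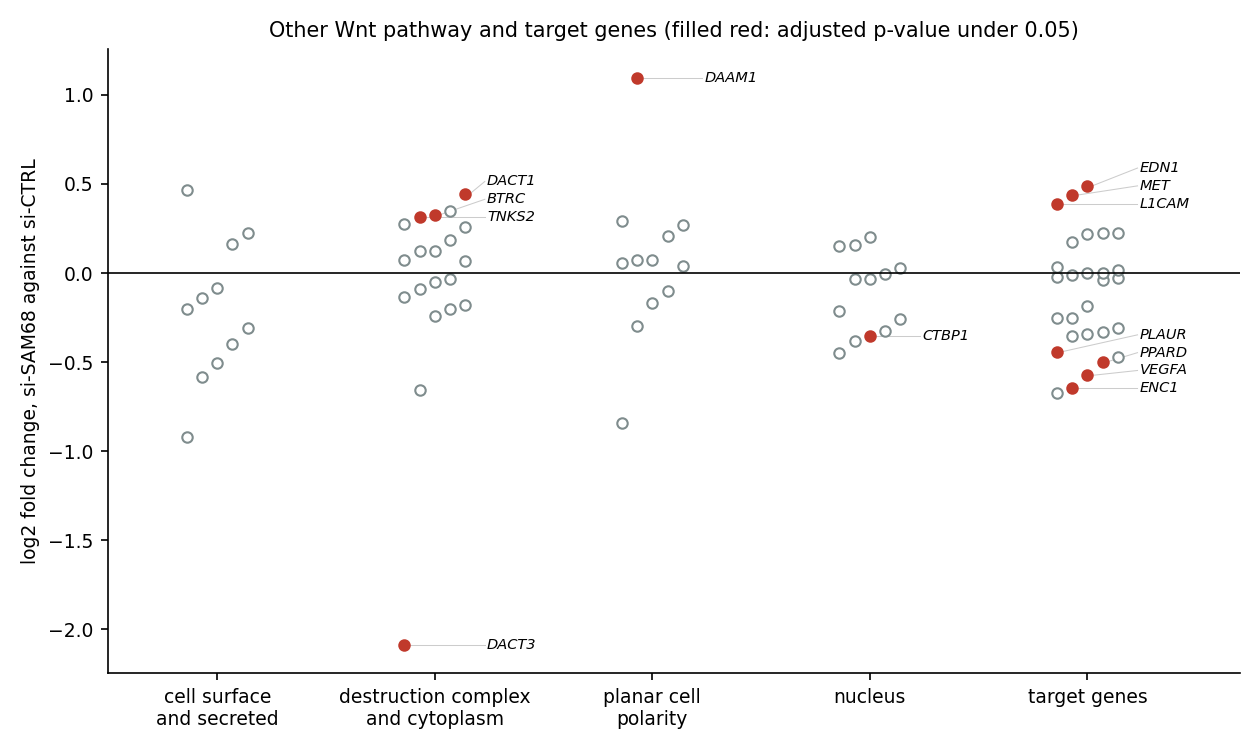
Log2 fold change, si-SAM68 against si-CTRL, on the vertical axis for the 84 tested genes of 5 further lists on the horizontal axis; each point is 1 gene and filled red points with names mark an adjusted p-value under 0.05. DAAM1 (1.10) and DACT3 (-2.09) stand apart from the other called genes, which lie between -0.65 and 0.49.

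The seed of siRNA 3 had a match in the 3′UTRs of 3 of the genes given in full above, LEF1, RNF43 and WNT4. The sites are shown as GRCh38 sequence of 25 bases on the minus strand, with the match to the seed in capitals.
LEF1 (chr4:108048417-108048441): tctcccctcATATCTGcgtgcactt
RNF43 (chr17:58353738-58353762): tgggtatttATATCTGaaccagaca
WNT4 (chr1:22119446-22119470): agaggttcgATATCTGtgggtcctt
RNF43 rose, LEF1 fell, and WNT4 had an estimate below 0 that did not pass. The seed of siRNA 3 also matched GSK3B, LRP6, ROR1, WNT2B and WNT3A, none of which passed. Their log2 fold changes were -0.25, 0.20, -0.07, 0.23 and -0.30. Over 19115 genes with a 3′UTR, a match occurred in 11.5% for the seed of siRNA 3. For the 4 control seeds it occurred in 0.56%, 18.3%, 29.6% and 31.1%. WNT5B held 1 match to the seed of siRNA 1. The called receptors, FZD2, FZD6, FZD7 and FZD8, held none for the SAM68 pool, whereas the control pool had 1 match in LEF1 and in RNF43, 2 in FZD6 and 3 in FZD7 and in FZD8. A match is a description of sequence, and the part of such matches in the values was not tested.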

How the data were processed

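RNA-seq libraries of MDA-MB-231 cells (TruSeq Stranded mRNA kit per the labels) were analysed from 1 deposited table. The signal values deposited by the authors are reads counted per FAST DB locus (hg19) divided by the DESeq2 size factor of the library. The submitters' processing notes name FastQC, Picard, SAMtools, STAR 2.4.0 and DESeq2; the counting program and its use of strand are not given in the sources used here, so that overlapping loci can share reads. All values (100% within a tolerance of 0.02) were whole multiples of 1 step per library, which gave back whole reads. The step of si-SAM68 replicate 1, 1.01, is too near 1 to tell such multiples from whole numbers.

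Groups came from the sample titles. limma 3.58.1 in R 4.3.3 (lmFit, eBayes with a trend) was run on log2(normalized read count + 1). A mean of 10 or more over all libraries was required, which 18849 loci met. Fold changes are on this scale and understate low genes. P-values were adjusted by the Benjamini-Hochberg method over these loci. Levels per kilobase used merged exons of GENCODE v29, for length alone. siRNA sequences came from the study's supplementary table, and sites from GENCODE v29 on GRCh38.

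Alternatives were pseudocounts of 0.1 and 5, no filter, a minimum mean of 50, TMM scaling, quantile normalization, leaving out each library, the replicate block, eBayes without a trend, edgeR 4.0.16 and DESeq2 1.42.0 on recovered reads, and, added after seeing the data, edgeR with the block and the permutation of level shares within pairs. Deviations from group means correlated at 0.105, 0.231 and 0.125 between libraries of the same number, and at -0.125 to 0.007 between others. Each group mean is taken over 3 libraries, so that these correlations depend on one another and the negative ones are no separate sign of pairing. The numbers served as pairs in the replicate block and in the permutation within pairs. The main limma fit, whose values are given unless the block is named, used no pairs. The programs were tested on simulated counts. The Wnt genes and the lists were chosen with earlier results of these data known. Genes with an adjusted p-value under 0.05 or past the study's thresholds were named with every library, other Wnt genes by means or fold changes, and from the 5 lists up to 5 with the largest changes in each direction among those with an adjusted p-value under 0.05, and CTNNB1. A further leucocyte marker is not reported here.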

Additional observations from a re-analysis of the deposited data

How the results depend on the processing

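KHDRBS1 and the 6 called Wnt genes kept their direction under every alternative. Calls among the Wnt genes numbered 2 with eBayes without a trend (RNF43 and FZD6), 5 without a filter or with quantile normalization, 7 by edgeR, 9 by DESeq2, 8 at a minimum mean of 50, and 4 to 8 with 1 library left out. They were 8 without si-CTRL replicate 1 and 4 without any 1 of the si-SAM68 libraries. With the replicate block they were 5, FZD2 being lost; in the other lists DACT1 and EDN1 were lost, and the block changed no other call among these genes (edgeR with the block also gave 5). Over all 18849 loci the calls were 899 with eBayes without a trend, 2040 with quantile normalization, 2026 by edgeR and 2789 by DESeq2. They were 1697 with the replicate block, 1500 of 33359 loci without a filter and 2165 of 15034 at a minimum mean of 50. With 1 library left out they ranged from 625 (without si-SAM68 replicate 3) to 2839 (without si-CTRL replicate 1), against 2017 with all libraries. The genes past the study's thresholds numbered 4 to 6 with 1 library left out, the 4 being without si-CTRL replicate 1. For the 5 further lists the count of 13 became 4 without a trend, 8 without a filter, 18 by DESeq2, and 3 to 21 with 1 library left out. The median log2 fold change of the Wnt genes was -0.14 without a filter, which adds genes of few reads, and -0.115 to -0.036 with 1 library left out, against -0.0774. With 1 library left out, genes with small estimates changed sign, with log2 fold changes from -0.12 to 0.064 for RYK, -0.25 to 0.053 for ROR1, -0.0056 to 0.19 for APC, -0.07 to 0.074 for WNT5A, -0.029 to 0.21 for WNT9A, -0.0024 to 0.30 for PORCN, -0.10 to 0.0024 for FZD5, -0.50 to 0.10 for FZD9 and -0.35 to 0.091 for TCF7L2. The cause of these differences was not tested. Precision is limited by 3 libraries per group, and for WNT4, DACT3 and RNF43 also by their few reads.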
